A study of Mus musculus with 4 samples.

Results

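Transcripts of 10 Bcl2 family genes were measured in single long-term hematopoietic stem cells (LT-HSCs), the marrow cells that sustain blood formation for life. The genes were listed by name: the pro-survival Bcl2, Bcl2l1, Mcl1 and Bcl2a1b, the BH3-only Bcl2l11, Pmaip1, Bbc3 and Bid, and the effectors Bax and Bak1. All 10 were among the 26687 gene symbols of each count table, and 8 of them reached 20 CPM in at least 1 library. CPM is the gene's unique molecular identifier (UMI) count, one per captured transcript molecule, per 1000000 UMIs of the library, not scaled to transcript length.

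The series concerns what the cytoplasmic nucleophosmin mutant NPMc+ does to stem cell dormancy on the way to myeloid leukemia. It holds 4 libraries, 1 per genotype: NPMc+, Flt3-ITD (an internal tandem duplication of the receptor tyrosine kinase Flt3), NPMc+/Flt3-ITD, and the control MxCRE, called Mx below, which carries the interferon-inducible Mx-driven Cre recombinase. All mice were C57BL/6 aged 8 to 11 weeks, and LT-HSCs were sorted by flow cytometry from crushed limb bones and sternum. The labels do not say whether the mutants also carry the Cre, which marker gate was used, or how many mice went into a library.

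Bcl2 family proteins decide at the outer mitochondrial membrane whether a cell lives. Bax and Bak1 open pores that release cytochrome c. The pro-survival proteins hold them shut, and BH3-only proteins, induced or activated by stress, disable the pro-survival proteins or switch the effectors on. Hematopoietic stem cells are known to depend on Mcl1, a protein with a very short half-life, and lymphoid cells lean on Bcl2.

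After filtering, 10608 of 11407 barcodes were kept as cells: 2375 NPMc+, 2393 Flt3-ITD, 3321 NPMc+/Flt3-ITD and 2519 Mx. Library totals lay between 20943905 and 26965367 UMIs, and median UMIs per cell lay between 7323 and 9466. No cell class in these libraries is known to lack these genes, so the part of free RNA in shares of cells was not tested. Shares of cells with a UMI were taken after each cell was thinned to 3000 UMIs, which left out 881 shallower cells. Barcodes shared between libraries numbered 160 pairs, with both cells kept in 52. All 11 LT-HSC markers (Procr, Hlf, Mecom and others) were detected in every library, with summed levels of 815 CPM in NPMc+, 618 CPM in Flt3-ITD, 426 CPM in NPMc+/Flt3-ITD and 1184 CPM in Mx. The NPMc+/Flt3-ITD library stood apart in its T-lineage genes. Its 10 T-lineage markers summed to 1160 CPM, against 143 in NPMc+, 152 in Flt3-ITD and 138 in Mx, and 662 of its 2991 cells at 3000 UMIs (22.1%) held 3 or more of them, against 9, 9 and 7 cells. Other lists moved with the genotypes too. Mast or basophil markers summed to 105 CPM with NPMc+, 48.2 CPM with Flt3-ITD and 579 CPM with both, compared with 19.2 CPM in Mx. Multipotent or lymphoid-primed progenitor markers summed to 448, 761 and 1820 CPM in those mutants, against 502 CPM in Mx, and megakaryocyte markers to 1024, 331 and 294 CPM, against 297 CPM. The part of these lists in the members' levels was not tested. Each library mixed male cells (a UMI of a Y-linked gene and none of Xist) and female cells (the reverse), with 93.1% of sexed cells male in NPMc+/Flt3-ITD, against 70.0% in NPMc+, 56.1% in Flt3-ITD and 67.6% in Mx. Cells with UMIs of both a Y-linked gene and Xist numbered 283 in NPMc+, 227 in Flt3-ITD, 66 in NPMc+/Flt3-ITD and 208 in Mx. Those with neither numbered 442, 406, 651 and 510 in that order, and both kinds were left unsexed. With 1 library per genotype there is no measure of variation between animals. Intervals are at 95% and exact for folds (conditional binomial), levels (Poisson) and shares (Clopper-Pearson), while those of products of folds and of differences in log2 ratios are normal approximations on the log scale. All cover counting error only, and test nothing about a genotype. Differences are counted from 1.5-fold. All comparisons with Mx share the same control library.

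Promoter sequence is shown for Bcl2 and Mcl1, which among the pro-survival genes that reached 20 CPM had the widest spread between libraries, and for Bax, the most abundant pro-death member and a textbook p53 target. Each run is the 250 bases before the RefSeq start (GRCm38.p6, the same sequence as mm10), 5′ to 3′ on the gene's strand, and capitals mark matches on either strand to a GC box (GGGCGG), an E-box (CACGTG) or the p53 half-site consensus.
Bcl2, chr1:106714291-106714540, minus strand: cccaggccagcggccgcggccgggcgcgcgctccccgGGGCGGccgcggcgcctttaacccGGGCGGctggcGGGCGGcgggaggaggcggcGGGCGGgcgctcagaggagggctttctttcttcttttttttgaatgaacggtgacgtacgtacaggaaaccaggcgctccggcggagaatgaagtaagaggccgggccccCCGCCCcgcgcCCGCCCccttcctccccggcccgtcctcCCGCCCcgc
Mcl1, chr3:95658471-95658720, plus strand: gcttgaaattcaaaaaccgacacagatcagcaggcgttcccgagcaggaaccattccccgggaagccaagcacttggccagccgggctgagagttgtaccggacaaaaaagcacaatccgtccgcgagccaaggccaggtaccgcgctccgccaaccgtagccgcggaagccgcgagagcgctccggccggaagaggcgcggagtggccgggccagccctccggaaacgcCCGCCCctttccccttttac
Bax, chr7:45466899-45467148, minus strand: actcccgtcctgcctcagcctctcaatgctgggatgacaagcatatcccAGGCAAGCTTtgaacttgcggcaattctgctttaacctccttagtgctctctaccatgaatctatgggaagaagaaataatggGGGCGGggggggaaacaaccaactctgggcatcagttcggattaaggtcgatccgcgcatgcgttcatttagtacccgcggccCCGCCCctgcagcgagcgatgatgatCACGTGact
The Bcl2 window held 7 GC boxes and the Mcl1 window 1, and neither held an E-box, a p53 half-site, an AP-1 site (TGANTCA) or a STAT site (TTCNNNGAA). The Bax window held 2 GC boxes, 1 E-box and 1 p53 half-site. Among 32851 RefSeq promoter windows of the same length, 32.7% held a GC box, 6.02% an E-box, 7.13% a p53 half-site, 6.75% the AP-1 site and 7.02% the STAT site. These are letter matches in short windows and say nothing of binding.

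Among the pro-survival genes, Bcl2 and Mcl1 were each highest in a different mutant (plot of transcript levels by library). Bcl2, the founding survival gene of the family (chromosome 1, 106538178 to 106714274, minus strand in mm10), had a level of 84.3 CPM in NPMc+ cells, 58.4 CPM in Flt3-ITD cells and 327 CPM in the NPMc+/Flt3-ITD library, compared with 82.4 CPM in Mx. A UMI was found in 20.8% of NPMc+ cells, 16.1% of Flt3-ITD cells and 47.4% of NPMc+/Flt3-ITD cells, against 20.03% of Mx cells. Only the NPMc+/Flt3-ITD library was high, at 3.98-fold of Mx (3.78 to 4.19), while Flt3-ITD was 1.41-fold lower (1.31 to 1.52) and NPMc+ lay at 1.02-fold (0.960 to 1.09). The share of cells with 2 or more Bcl2 UMIs was 24.3% in NPMc+/Flt3-ITD, against 3.16% in Mx. Without thinning, a Bcl2 UMI was found in 50.1% of cells with NPMc+ alone, in 37.4% with Flt3-ITD alone and in 70.0% with both, against 43.5% of Mx cells.

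Mcl1 (chromosome 3, 95658788 to 95663176, plus strand, mm10) showed another order. It stood at 199 CPM in NPMc+ cells, 328 CPM in Flt3-ITD cells and 133 CPM in the NPMc+/Flt3-ITD library, compared with 130 CPM in Mx, and was detected in 44.9%, 58.6% and 32.5% of the mutant cells in that order, against 31.7% of Mx cells. Flt3-ITD was the highest library at 2.52-fold of Mx (2.41 to 2.64), followed by NPMc+ at 1.53-fold (1.46 to 1.61). NPMc+/Flt3-ITD lay within counting error of Mx, at 1.02-fold (0.971 to 1.07), although each single mutant was above it.

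Bcl2l1, which encodes Bcl-xL (chromosome 2, 152780668 to 152831728, minus strand), varied less. Its level was 22.3 CPM in NPMc+ cells, 25.6 CPM in Flt3-ITD cells and 33.7 CPM in the NPMc+/Flt3-ITD library, compared with 23.2 CPM in Mx, and 1.45-fold of Mx (1.30 to 1.63) was its widest gap from the control. Bcl2a1b, one of several near-identical mouse copies of the NF-kB target A1 (chromosome 9, 89199209 to 89207827), was almost absent, with 20, 11 and 4 UMIs in NPMc+, Flt3-ITD and NPMc+/Flt3-ITD, against 14 in Mx. Of the 90-base windows of its transcript, 36.1% also occur in Bcl2a1d and 17.7% in Bcl2a1a, so reads could be split or dropped among the copies and its value is uncertain. Those copies had 3 or fewer UMIs in each mutant and at most 4 in Mx.

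**Figure D1:**
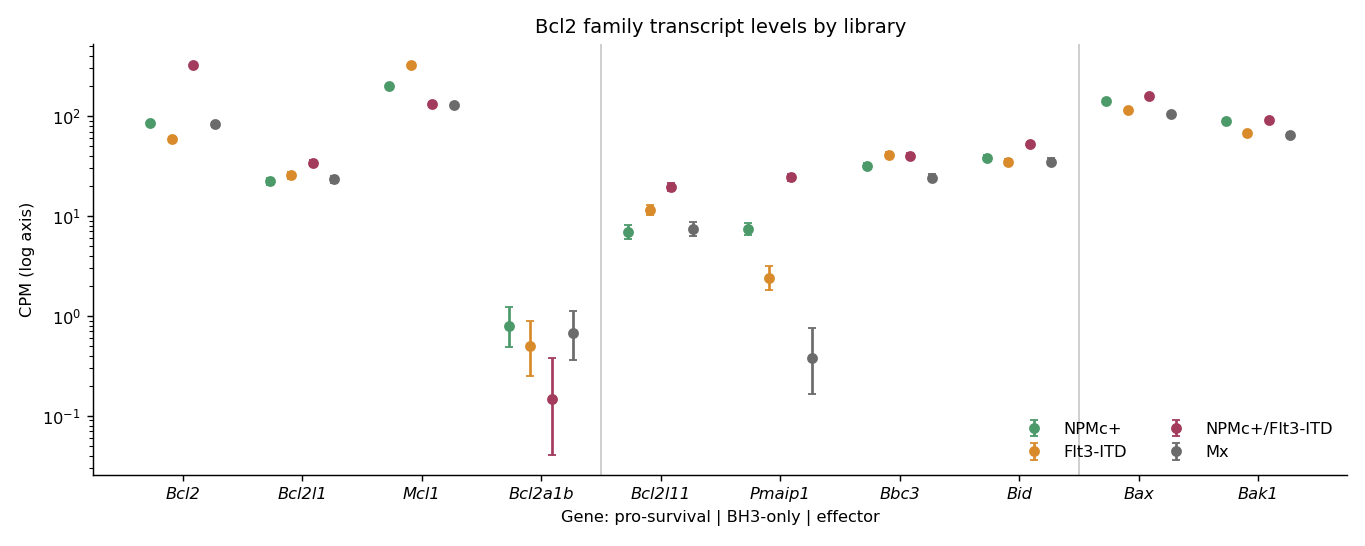
CPM on a log axis of the 10 genes in each library, with points for NPMc+, Flt3-ITD, NPMc+/Flt3-ITD and Mx and bars for exact 95% Poisson intervals (counting error only). Bcl2 is highest in NPMc+/Flt3-ITD at 327 CPM, Mcl1 in Flt3-ITD at 328 CPM, and Pmaip1 ranges from 0.382 CPM in Mx to 24.5 CPM in NPMc+/Flt3-ITD.

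Among the BH3-only genes, Pmaip1 had the widest range. Pmaip1 encodes Noxa, the BH3-only protein that binds Mcl1 and is induced by p53 and by the integrated stress response. It had 187 UMIs in NPMc+ cells, 53 UMIs in Flt3-ITD cells and 660 UMIs in the NPMc+/Flt3-ITD library, compared with 8 UMIs in Mx, or 7.46, 2.41 and 24.5 CPM against 0.382 CPM. All 3 mutants were above the control, and their intervals overlapped neither it nor each other. The folds over Mx were 19.5 (9.71 to 45.9), 6.31 (2.98 to 15.4) and 64.1 (32.3 to 149), and rest on those 8 control UMIs. A UMI was found in 2.18%, 0.690% and 7.02% of the mutant cells in that order, against 0.0865% of Mx cells, so even in NPMc+/Flt3-ITD the transcript was caught in a minority of cells.

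Bbc3, which encodes the p53-induced killer Puma (chromosome 7, 16308393 to 16318205, plus strand), stood at 31.7 CPM in NPMc+ cells, 40.9 CPM in Flt3-ITD cells and 40.2 CPM in the NPMc+/Flt3-ITD library, compared with 24.2 CPM in Mx. All mutants were above Mx, by 1.31-fold (1.17 to 1.47), 1.69-fold (1.51 to 1.89) and 1.66-fold (1.49 to 1.85). Bcl2l11, which encodes Bim, the main killer of lymphocytes deprived of cytokine (chromosome 2, 128126038 to 128162547, plus strand), was low throughout: 6.94 CPM in NPMc+ cells, 11.5 CPM in Flt3-ITD cells and 19.5 CPM in the NPMc+/Flt3-ITD library, compared with 7.45 CPM in Mx. The folds of Flt3-ITD and NPMc+/Flt3-ITD over Mx were 1.55 (1.26 to 1.90) and 2.61 (2.18 to 3.15), while NPMc+ lay within counting error of Mx. Bid, which links death receptors to mitochondria (chromosome 6, 120891930 to 120916853, minus strand), was 1.497-fold of Mx in NPMc+/Flt3-ITD (1.37 to 1.64), just under the fold used for counting, and within counting error of Mx in both single mutants. Its levels were 38.3 CPM in NPMc+ cells, 34.9 CPM in Flt3-ITD cells and 52.4 CPM in the NPMc+/Flt3-ITD library, compared with 35.0 CPM in Mx. Bid and Bcl2l13 overlap on opposite strands, and whether counting used strand is not given in the sources used here.

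**Figure D2:**
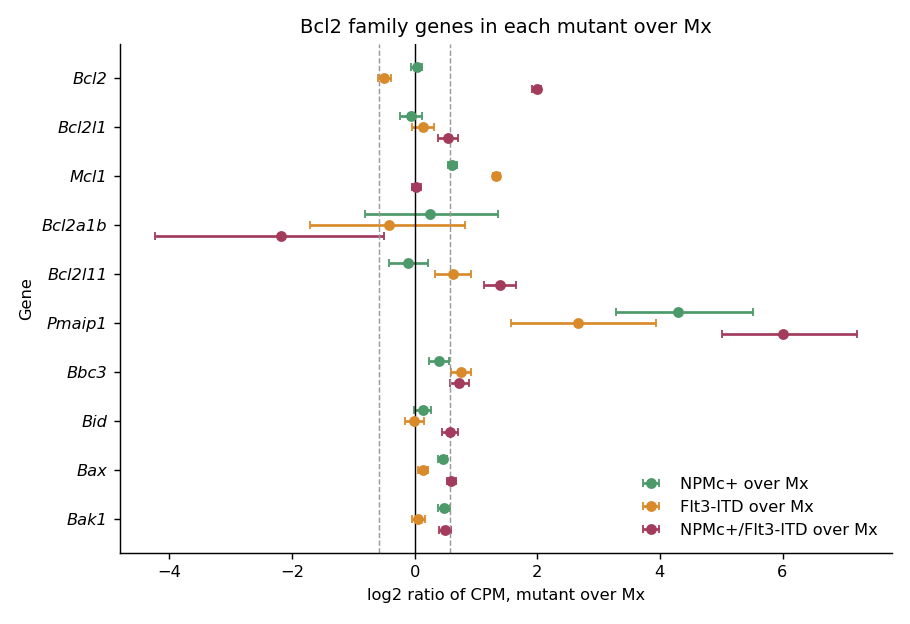
log2 ratio of CPM of NPMc+, Flt3-ITD and NPMc+/Flt3-ITD over Mx for each gene, with exact 95% intervals for counting error. Dashed lines mark 1.5-fold in either direction. Pmaip1 has the highest ratio in all 3 mutants, and Bcl2 and Mcl1 are each far from 0 in a different mutant.

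The effectors differed less between libraries. Bax and Bak1 are the pore formers, and either can carry out the killing step. Bax (chromosome 7, 45461697 to 45466898, minus strand) stood at 143 CPM in NPMc+ cells, 114 CPM in Flt3-ITD cells and 157 CPM in the NPMc+/Flt3-ITD library, compared with 104 CPM in Mx. Bak1 (chromosome 17, 27019810 to 27029009, minus strand) stood at 90.2, 67.2 and 90.9 CPM in those mutants, against 64.4 in Mx. Both were higher in both libraries carrying NPMc+, by 1.37-fold (1.30 to 1.45) and 1.51-fold (1.44 to 1.59) for Bax and by 1.40-fold (1.31 to 1.499) and 1.41-fold (1.32 to 1.51) for Bak1. In Flt3-ITD the folds were 1.10 (1.04 to 1.16) and 1.04 (0.969 to 1.12). Ggnbp1, on the other strand across Bak1, had at most 225 UMIs in a library, against 1349 or more for Bak1.

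Counted at 1.5-fold and at least 20 CPM in either library, 1 of 7 members was higher in NPMc+ over Mx (Mcl1) and none lower, where 4.37% of all genes were higher and 8.91% lower. In Flt3-ITD over Mx, 2 of 7 were higher (Mcl1, Bbc3) and none lower, beside 4.41% and 6.40% of all genes. In NPMc+/Flt3-ITD over Mx, 4 of 8 were higher (Bcl2, Pmaip1, Bbc3, Bax) and none lower, beside 14.1% and 9.84%. The median log2 ratio of the members at that level was 0.39, 0.14 and 0.59 in those comparisons, and of all genes -0.01, -0.06 and 0.21. Pmaip1 entered only through NPMc+/Flt3-ITD, where it is high, and Bcl2a1b and Bcl2l11 never reached 20 CPM. With TMM scaling the all-gene medians became 0.14, 0.08 and 0.18, and the NPMc+ count became 3. With totals that leave out mitochondrial and ribosomal protein genes it became 0. Those totals also took Bbc3 and Bax in NPMc+/Flt3-ITD over Mx under 1.5-fold, at log2 ratios of 0.525 and 0.393. Bax in that comparison was also under 1.5-fold with TMM scaling, while Bbc3 stayed past it. The 10 genes are not replicates of a condition.

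Set against the single mutants, NPMc+/Flt3-ITD had more Bcl2 and less Mcl1 than either. Over Flt3-ITD, 2 of 8 members were higher (Bcl2, Pmaip1) and 1 lower (Mcl1), beside 13.7% and 7.35% of all genes. In this count and the next, Pmaip1 reached 20 CPM only through NPMc+/Flt3-ITD, where it is high. Its entry and its place among the higher genes are therefore not separate results. Bcl2 was 5.61-fold higher (5.29 to 5.95), Pmaip1 10.2-fold higher (7.67 to 13.7) and Mcl1 2.47-fold lower (2.37 to 2.57). Over NPMc+, 3 of 8 were higher (Bcl2, Bcl2l1, Pmaip1) and 1 lower (Mcl1), beside 14.0% and 7.61%. Bcl2l1 was barely past 1.5-fold, at 33.7 CPM against 22.3 CPM. It was under 1.5-fold with TMM scaling or with totals without mitochondrial and ribosomal protein genes. The all-gene median log2 ratio was 0.22 here and 0.05 with TMM scaling. Over Flt3-ITD it was 0.28 and 0.11. Bcl2 was 3.88-fold higher (3.70 to 4.07), Pmaip1 3.28-fold higher (2.79 to 3.88) and Mcl1 1.501-fold lower (1.44 to 1.57). The sexes differed here. In male cells the folds over NPMc+ were 4.07 (3.82 to 4.35) for Bcl2 and 4.39 (3.45 to 5.66) for Pmaip1. In female cells Bcl2 was at 1.19 (0.986 to 1.42) and Pmaip1 was on the other side of 1, at 0.523 (0.214 to 1.11), from 8 UMIs in NPMc+/Flt3-ITD and 49 in NPMc+.

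The product of the single-mutant folds gives the level NPMc+/Flt3-ITD would have if both acted independently by multiplication. Observed Bcl2 was 5.48 times that product (5.03 to 5.98) and Bcl2l11 1.82 times (1.40 to 2.36), while Mcl1 was 0.264 times (0.248 to 0.281), with 133 CPM observed and 502 CPM from the product. These are whole-library values, and the libraries differ in cell make-up. Among cells with no T-lineage marker, Bcl2 was 166 CPM in NPMc+/Flt3-ITD, 79.0 CPM in NPMc+, 56.4 CPM in Flt3-ITD and 79.5 CPM in Mx. In female cells it was 107, 90.4, 60.6 and 81.1 CPM in that order. Its gap to the product was smaller in both, and the part of cell make-up was not tested. Bid and Bcl2l1 were each above the product, at 1.37 times (1.20 to 1.56 for Bid, 1.17 to 1.61 for Bcl2l1), and Bbc3 was below it, at 0.750 times (0.650 to 0.864). Bcl2a1b was at 0.248 times (0.0655 to 0.942), from few UMIs. The Bax interval included the product (0.934 to 1.08 times), as did that of Bak1 (0.879 to 1.06 times). Pmaip1 was 0.520 times its product (0.243 to 1.11), an interval that includes 1 and rests on the 8 control UMIs. All these ratios were taken in CPM and depend on the scaling. TMM factors were 0.948 in NPMc+, 0.946 in Flt3-ITD, 1.07 in NPMc+/Flt3-ITD and 1.05 in Mx. Applying them lowers every ratio to its product by the same factor, so those of Bid, Bcl2l1, Bax and Bak1 are not settled. The same ratio over all genes is not given.

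Summed over members, pro-survival transcripts stood at 306 CPM in NPMc+ cells, 412 CPM in Flt3-ITD cells and 494 CPM in the NPMc+/Flt3-ITD library, compared with 236 CPM in Mx, and pro-death transcripts at 317, 271 and 385 CPM, against 235 CPM. Both sums were higher in every mutant than in Mx (plot of pro-survival and pro-death sums). The ratio of pro-survival to pro-death UMIs was 0.966 in NPMc+ cells, 1.52 in Flt3-ITD cells and 1.28 in the NPMc+/Flt3-ITD library, against an interval of 0.964 to 1.04 in Mx, which is a log2 difference from Mx of -0.05, 0.60 and 0.36. The interval of that difference was -0.13 to 0.02 in NPMc+, 0.53 to 0.67 in Flt3-ITD cells and 0.29 to 0.42 in the NPMc+/Flt3-ITD library. In female NPMc+/Flt3-ITD cells it was -0.30, and without cells carrying 3 or more markers of T, B, erythroid, granulocyte or mast cells it was -0.12. That exclusion was unequal and kept 72.0% of cells in NPMc+, 82.4% with Flt3-ITD and 49.0% with both, against 90.8% in Mx. Its markers were counted without thinning, so it also depends on depth. The NPMc+ cells kept held 15163640 of that library's 25070675 UMIs. The genes that supplied the pro-survival sum differed. Mcl1 supplied 79.5% of pro-survival UMIs in Flt3-ITD cells and 26.8% of those in NPMc+/Flt3-ITD cells, against 55.0% in Mx cells. Bcl2 supplied 14.2% and 66.3%, against 34.9%. Without Mcl1 the log2 difference was -0.53 in Flt3-ITD cells and 1.06 in the NPMc+/Flt3-ITD library. There were 2.47 Bcl2 UMIs per Mcl1 UMI in NPMc+/Flt3-ITD, 0.178 in Flt3-ITD and 0.424 in NPMc+, against 0.634 in Mx. Such ratios of transcripts compare libraries and are not ratios of proteins, whose lifetimes differ widely.

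**Figure D3:**
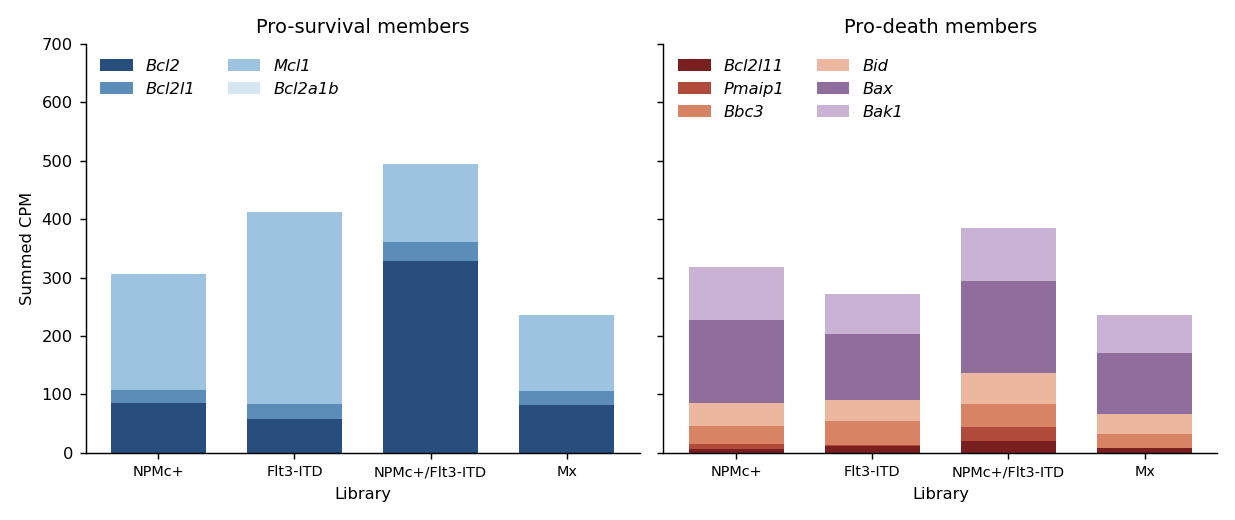
Stacked bars of CPM by library (NPMc+, Flt3-ITD, NPMc+/Flt3-ITD, Mx), pro-survival members on the left and pro-death members on the right. The pro-survival sum is mostly Mcl1 in Flt3-ITD and mostly Bcl2 in NPMc+/Flt3-ITD, while Bax and Bak1 make up most of the pro-death sum in each library.

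The Bcl2 level followed the T-lineage markers (Tcf7, Bcl11b, Gata3, Cd3e and others; Bcl2 is not among them). In NPMc+/Flt3-ITD cells thinned to 3000 UMIs and grouped by how many of the 10 markers they held, Bcl2 stood at 166 CPM with 0 markers (881 cells), 186 with 1 (1040 cells), 236 with 2 (408 cells), 508 with 3 (112 cells) and 1183 with 4 or more (550 cells). Bcl2 was 6.10-fold higher (5.74 to 6.49) in the 662 cells with 3 or more than in those with 0. The cells with 3 or more markers in the other libraries, 9, 9 and 7 in number, also had more Bcl2 than marker-free cells: 501, 553 and 335 CPM in NPMc+, Flt3-ITD and Mx. Among marker-free cells Bcl2 was 79.0 CPM in NPMc+ cells, 56.4 CPM in Flt3-ITD cells and 166 CPM in the NPMc+/Flt3-ITD library, compared with 79.5 CPM in Mx, so NPMc+/Flt3-ITD was still 2.08-fold of Mx there (1.92 to 2.25). The cut is a range of a score and not a cell type, and the cells with 4 or more were shallower, with a median of 4992 UMIs, against 8418 in marker-free cells.

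Other members followed the markers less or in the other direction (plot of levels by T-lineage markers). From 0 to 4 or more markers in NPMc+/Flt3-ITD, Pmaip1 stood at 17.6, 20.7, 25.9, 32.97 and 47.4 CPM, and its marker-free cells were 32.2-fold of the marker-free Mx cells (15.9 to 76.1). Bcl2l11 was 2.11-fold higher (1.64 to 2.72) in cells with 3 or more markers than in those with 0. Mcl1 was 0.815-fold (0.731 to 0.907), Bid 0.707-fold (0.586 to 0.849) and Bak1 0.824-fold (0.720 to 0.942), while the intervals of Bax and Bbc3 included 1. Among marker-free cells, the NPMc+/Flt3-ITD fold over Mx was 1.64 for Bbc3, 1.56 for Bid, 1.47 for Bax, 1.41 for Bak1 and 2.23 for Bcl2l11, with lower bounds of 1.28 or more.

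**Figure D4:**
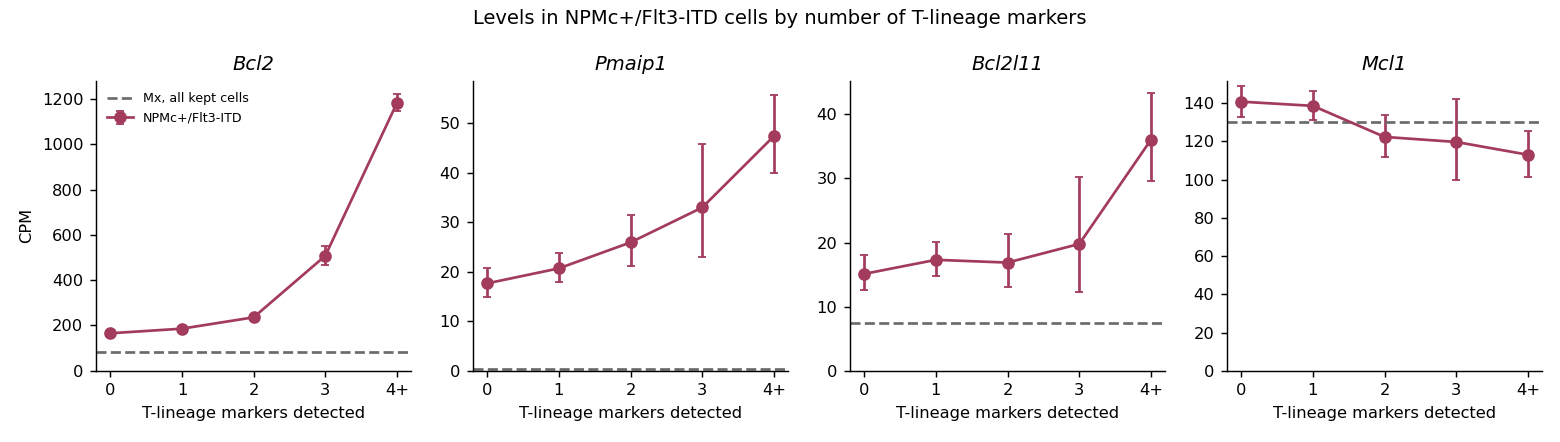
CPM of Bcl2, Pmaip1, Bcl2l11 and Mcl1 in NPMc+/Flt3-ITD cells grouped by the number of T-lineage markers detected at 3000 UMIs, with exact 95% Poisson intervals. The dashed line is the level in all kept Mx cells. Bcl2 reaches 1183 CPM at 4 or more markers, against 166 CPM at 0.

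In cells with 3 or more LT-HSC markers and no T-lineage marker, NPMc+/Flt3-ITD again had the most Bcl2 and Flt3-ITD the most Mcl1. Bcl2 was 71.1 CPM in NPMc+ (517 cells), 56.0 CPM in Flt3-ITD (289 cells) and 133 CPM in NPMc+/Flt3-ITD (117 cells), against 74.9 in Mx (823 cells), so the last mutant was 1.78-fold of Mx (1.44 to 2.17). Mcl1 there was 249, 371 and 199 CPM, against 141 CPM in Mx, and NPMc+/Flt3-ITD was then 1.42-fold of Mx (1.20 to 1.66), unlike over all cells. Pmaip1 there was 4.09, 1.56 and 14.4 CPM from 20, 4 and 13 UMIs, against 0.599 CPM from 4 UMIs in Mx. In cells with 3 or more cycling markers, Mcl1 was lower than in cells with 3 or more LT-HSC markers in each library, at 120 CPM in NPMc+ cells, 177 CPM in Flt3-ITD cells and 85.4 CPM in the NPMc+/Flt3-ITD library, compared with 75.2 CPM in Mx. The LT-HSC-marked cells, counted whatever their T-lineage markers, had 242, 379 and 187 CPM in the mutants in that order, against 143 CPM in Mx.

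The sexes also separated within the NPMc+/Flt3-ITD library. Its 2425 male cells had Bcl2 at 343 CPM and its 179 female cells at 107 CPM, while Mx had 80.2 CPM in male and 81.1 CPM in female cells. The male cells were thus 4.28-fold of male Mx cells (3.98 to 4.61). Pmaip1 was 26.3 CPM in those male cells and 5.23 CPM in the female cells, the second from 8 UMIs. The T-lineage markers summed to 1182 CPM in the male cells and 302 CPM in the female cells. The progenitor markers summed to 1897 CPM in the male and 915 CPM in the female cells, and the LT-HSC markers to 403 CPM in the male and 595 CPM in the female cells. Among marker-free cells, Bcl2 was 176 CPM in male and 98.3 CPM in female cells. Mcl1 in Flt3-ITD was 323 CPM in male and 333 CPM in female cells, with overlapping intervals. Because a library holds an unknown number of animals, sex, animal and cell make-up cannot be told apart.

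**Figure D5:**
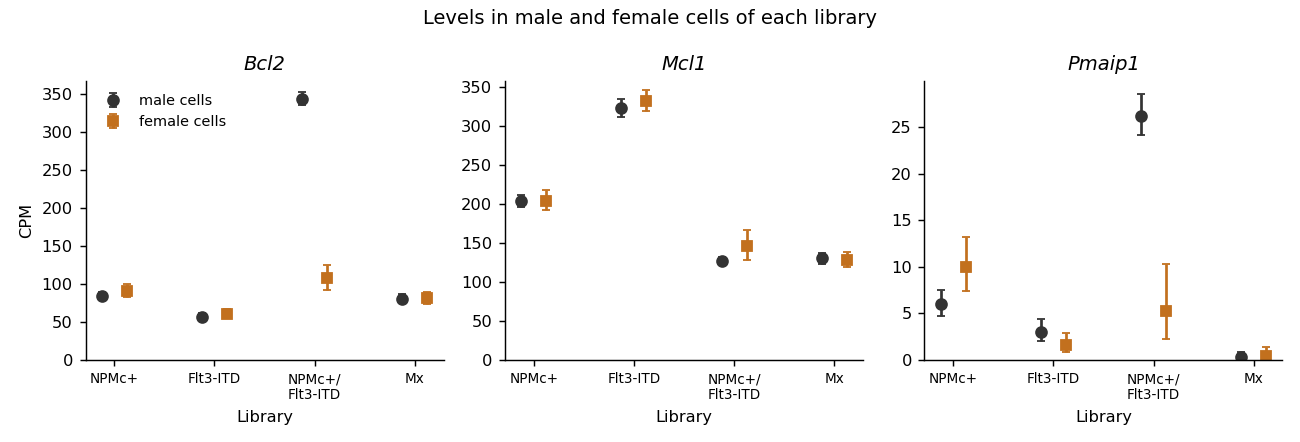
CPM of Bcl2, Mcl1 and Pmaip1 in male cells (circles) and female cells (squares) of NPMc+, Flt3-ITD, NPMc+/Flt3-ITD and Mx, with exact 95% Poisson intervals. In NPMc+/Flt3-ITD, Bcl2 is 343 CPM in male and 107 CPM in female cells, and in Flt3-ITD, Mcl1 is 323 CPM in male and 333 CPM in female cells.

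Flt3-ITD had the highest levels both of Mcl1 and of the immediate-early genes, which respond within minutes to signalling and to cell handling. The 13 immediate-early markers (Fos, Jun, Egr1 and others) summed to 11006 CPM in NPMc+ cells, 18449 CPM in Flt3-ITD cells and 12162 CPM in the NPMc+/Flt3-ITD library, compared with 5144 CPM in Mx. Single genes of the list did not all follow the sum. Nr4a1 stood at 159 CPM with NPMc+ alone, 659 CPM with Flt3-ITD alone and 96.1 CPM with both, compared with 45.6 CPM in Mx. Atf3 stood at 75.8, 152 and 24.9 CPM in those mutants, against 6.54 CPM in Mx. Both genes were lower in NPMc+/Flt3-ITD than in either single mutant, while the sum of the 13 was above that of NPMc+. The rest of the list is not shown singly. Cells with no UMI of Nr4a1 or Atf3 numbered 547, 122 and 1691 in those mutants and 1826 in Mx. In them Mcl1 stood at 183, 233 and 123 CPM, against 124 CPM in Mx, so Flt3-ITD had a log2 ratio of 0.91 there and 1.33 over all cells. Bbc3 in these cells stood at 35.0 CPM in NPMc+ cells, 45.0 CPM in Flt3-ITD cells and 39.7 CPM in the NPMc+/Flt3-ITD library, compared with 24.0 CPM in Mx. Those Flt3-ITD cells were shallow, with a median of 3792 UMIs. The cells with a UMI of either gene numbered 2271 in Flt3-ITD and 693 in Mx. Among these, Mcl1 in Flt3-ITD was 2.31-fold of Mx (2.16 to 2.47). The part of immediate-early signalling or handling in the Mcl1 level was not tested further.

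Of the other family genes, 14 of 16 listed were in the files and 5 reached 20 CPM, and none of those 5 passed 1.5-fold in any mutant over Mx. Of all genes, 4.37%, 4.41% and 14.1% were higher and 8.91%, 6.40% and 9.84% lower in those comparisons, so nothing is read from that count. Over NPMc+, 2 of the 5 were higher in NPMc+/Flt3-ITD (Bcl2l12, Bnip3), beside 14.0% of all genes. Both were under 1.5-fold with TMM scaling. Bcl2l2, the pro-survival Bcl-w, stayed between 5.87 and 7.19 CPM. Bok, an effector-like relative, stood at 2.71 CPM in NPMc+ cells, 9.69 CPM in Flt3-ITD cells and 10.1 CPM in the NPMc+/Flt3-ITD library, compared with 3.25 CPM in Mx, under the 20 CPM needed for counting. Also under it, Bcl2l14 stood at 12.1 CPM in NPMc+/Flt3-ITD and 4.54 CPM in Mx, a fold of 2.66 (2.11 to 3.38), and Bmf, a BH3-only gene, at 1.89 CPM and 0.955 CPM, a fold of 1.98 (1.16 to 3.51). Bad, a BH3-only protein switched by phosphorylation, was 67.1 CPM in NPMc+/Flt3-ITD and 50.7 in Mx.

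Downstream of the family, 2 of 11 caspase and apoptosome genes passed 1.5-fold in NPMc+/Flt3-ITD over Mx, both higher, with a list median log2 ratio of 0.33, where 14.1% of all genes were higher and 9.84% lower. Counts this small in this comparison lie near those shares, and nothing is read from such counts about any list. Casp6, an executioner caspase, stood at 93.8 CPM, against 44.6 CPM in Mx, and Diablo, which encodes the inhibitor-of-apoptosis antagonist Smac, at 152 CPM, against 81.5 CPM. In NPMc+ over Mx, 1 of 11 was higher, namely Cycs (cytochrome c) at 242 CPM, against 148 CPM, beside 4.37% of all genes. Among 5 inhibitors of apoptosis, Xiap, which blocks caspases, was lower in each mutant, at 22.3, 22.2 and 22.3 CPM against 38.3 CPM in Mx. Birc5 (survivin, also a mitotic gene) was higher in each, at 72.2, 61.5 and 57.0 CPM against 33.8 CPM. Birc6 was also lower in NPMc+, at 43.6 CPM against 66.6 CPM in Mx. Thus 2 of 5 were lower in NPMc+, beside 8.91% of all genes. In Flt3-ITD 1 of 5 was lower, beside 6.40%, and in NPMc+/Flt3-ITD 1 of 5, beside 9.84%. The 1 of 5 higher in each mutant stood beside 4.37%, 4.41% and 14.1%. Mtch2, the mitochondrial receptor for Bid, stood at 138 CPM in NPMc+/Flt3-ITD, against 90.2 CPM in Mx, the 1 of 8 mitochondrial partner and turnover genes past 1.5-fold there. Of 6 death receptor and necroptosis genes, Tnfrsf1b alone passed, lower at 12.8 CPM in NPMc+/Flt3-ITD and 11.5 CPM in Flt3-ITD, against 20.4 CPM in Mx. Of the other genes furthest from no difference in their lists, Casp8, Birc2, Usp9x, Bag1, Vdac3, Mlkl, Ripk1 and Tradd stayed within 1.5-fold of Mx in every mutant. Of 14 regulators of the members' transcription, 2 were higher in NPMc+/Flt3-ITD: Nfkb1 at 200 CPM against 98.5 CPM in Mx, and Runx1 at 165 CPM against 102 CPM. Rel, an NF-kB subunit, was lower in NPMc+, at 12.5 CPM against 22.6 CPM. Trp53 stood at 363 CPM in NPMc+/Flt3-ITD, against 243 CPM in Mx, just under 1.5-fold.

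By pattern over the 4 libraries, measured as the distance between centred log2(CPM + 1) values among 7089 other genes at 20 CPM or more, the genes most like Bcl2 were Serpina3f (distance 0.269), Pdgfrb (0.378) and Gata3 (0.427). Gata3 is one of the T-lineage markers, but it was also found in Mx, at 37.8 CPM, against 107 CPM in NPMc+/Flt3-ITD. Serpina3f and Pdgfrb are not among those markers. Mcl1 was closest to Gmfg-ps, Adgre5 and Hivep2, and Pmaip1 to Cst7, Cd7 and Lat2. With 4 libraries such closeness describes these libraries alone.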

How the data were processed

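The deposited tables held whole UMI counts per gene and barcode, which the submitters' processing notes credit to STARsolo (STAR 2.7.0c, build mm10). The library kit was 10x Single Cell 3' v2, per the labels' protocols. Cells were kept with at least 1000 UMIs, 500 genes and at most 10% mitochondrial UMIs. UMIs of kept cells were summed per library and scaled to CPM in Python 3.11.15 with numpy 2.4.6 and scipy 1.17.1. Differences were counted from 1.5-fold with at least 20 CPM in either library, with no test, since each genotype had 1 library. Sex was called from Xist and 4 Y-linked genes. Doublets were not called. TMM factors came from edgeR 4.0.16. The fold calculation was tested on simulated counts. Coordinates and overlaps came from GENCODE M21. Members, lists and alternatives were chosen with earlier results of these data known. Named genes were all members, the other family genes and, of each pathway list, the 4 genes at 20 CPM or more furthest from no difference in any comparison with Mx. Alternatives varied the scaling, the cells kept, the threshold and the thinning depth. No sample column was left unused. A floor of 3 counts applies where a count is 0.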

Additional observations from a re-analysis of the deposited data

Results flagged for a closer look

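Among the 10 members in each mutant over Mx, 8 comparisons had the member on opposite sides of Mx in male and in female cells. None of these differences was tested, and most folds lie close to 1. The share of all genes that do so is not given, so the count is not read as a trait of these members. In NPMc+ over Mx, the fold was 0.953 in male and 1.04 in female cells for Bcl2l1, 1.16 and 0.841 for Bcl2a1b, 0.746 and 1.18 for Bcl2l11, and 1.13 and 0.966 for Bid. In Flt3-ITD over Mx, the Bid fold was 0.915 among male and 1.01 among female cells. In NPMc+/Flt3-ITD over Mx, the fold in male and in female cells was 0.974 and 1.14 for Mcl1, 0.0701 and 1.35 for Bcl2a1b (1 and 2 UMIs), and 1.49 and 0.965 for Bid.

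The survival over death ratio also took opposite signs. Its log2 difference from Mx was 0.37 in male and -0.30 in female NPMc+/Flt3-ITD cells, and -0.05 in male and 0.02 in female NPMc+ cells. Neither difference was tested.

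Barcodes under 1000 UMIs, which were not kept as cells, held Bcl2 at 659 CPM in NPMc+/Flt3-ITD (65 UMIs over 203 barcodes), against 194 CPM in Mx (9 UMIs over 206 barcodes).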

How the results depend on the processing

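The share of all genes past the cut is not given under the alternatives, so the counts below are not read as results about the members. Counts of members past 1.5-fold changed by more than 1.5 times as follows. For NPMc+ over Mx, 1 member became 3 with TMM scaling, 2 with a 5 CPM floor, and 0 with totals without mitochondrial and ribosomal protein genes, in cells with no Nr4a1 or Atf3 UMI, or at 2-fold. At 2-fold, Flt3-ITD over Mx gave 1 and NPMc+/Flt3-ITD gave 2 over Mx and 2 over NPMc+. NPMc+/Flt3-ITD over NPMc+ gave 4 members, but 0 in female cells and 1 without cells holding 3 or more T, B, erythroid, granulocyte or mast markers, and over Flt3-ITD the 3 became 5 without the 5% of cells with most UMIs. The log2 difference of the survival over death ratio in NPMc+/Flt3-ITD was 0.36 in all cells, 0.60 as a mean of cells' own CPM, 0.49 in cells with no Nr4a1 or Atf3 UMI, 1.06 without Mcl1, and reversed to -0.30 in female cells and -0.12 without the lineage-marked cells. In Flt3-ITD it was 0.73 in female cells, 0.34 in cells with no Nr4a1 or Atf3 UMI, and reversed to -0.53 without Mcl1; in NPMc+ it was -0.41 without Mcl1. Scaling a whole library cannot change that ratio. Over the alternatives, the log2 ratio of Bcl2 in NPMc+/Flt3-ITD over Mx ranged from 0.40 in female cells to 2.36, and was 1.09 without lineage-marked cells; Mcl1 in Flt3-ITD ranged from 0.91 to 1.48; Pmaip1 in NPMc+/Flt3-ITD from 3.75 to 6.89. Among ratios to Mx whose interval excluded 1, those that reversed were Bcl2a1b (0.43) and Bid (-0.051) in female NPMc+/Flt3-ITD cells and Bcl2l11 (-0.18) in Flt3-ITD cells with no Nr4a1 or Atf3 UMI; the cause was not tested. Ratios whose interval included 1 also changed sign, such as Mcl1 in NPMc+/Flt3-ITD, at -0.18 with totals without mitochondrial and ribosomal protein genes. Shares of cells with a UMI moved in 106 comparisons with an alternative and stayed the same in 14. The Bcl2 share in NPMc+, for example, was 20.8% at 3000 UMIs and 50.1% without thinning. Bcl2a1b and Mx Pmaip1 are limited by depth. No paired analysis was possible because each genotype has 1 library.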
